A study of Mus musculus with 6 samples.

Results

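The enzymes that add methyl or acetyl groups to histones, and those that take them off, were examined in granulocyte-monocyte progenitors of mice with hindlimb ischemia. Members were the genes of the all-gene table whose deposited name starts with Kdm, Kmt, Setd, Nsd, Ezh, Hdac, Sirt or Kat followed by a digit. Of 24205 genes in the table, 61 matched, and 1 was dropped because its name marks a pseudogene, which left 60. These 60 entries carry 59 symbols, since Hdac4 is listed as a pair of gene models. They comprise 24 writers (Kmt, Setd, Nsd, Ezh and Kat) and 36 erasers (Kdm, Hdac and Sirt).

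Progenitors were sorted from the bone marrow of C57BL/6 mice straight into lysis buffer, and RNA was isolated with the PicoPure kit. The HI group (3 libraries) came from mice whose hindlimb had been made ischemic, that is, deprived of blood flow, and the Sham group (3 libraries) from mice given a sham procedure. The time after surgery, the sex and age of the animals and the gates of the sort were not given in the sources used here. The labels do not say that each library is a separate animal, so a p-value here reflects the spread among these 6 libraries alone, which may be technical. In a bulk library, fewer cells of a type and less RNA per cell cannot be told apart.

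Histones carry methyl groups on lysines, where the effect depends on the site: marks on lysine 4 of histone H3 lie at active promoters and enhancers, and marks on lysine 27 at silenced genes. Acetyl groups loosen the contact of histones with DNA and go with transcription. In blood-forming cells several of these enzymes are known for holding or releasing progenitor programs, among them Kmt2a, Ezh2, Kdm1a and Hdac3.

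No member passed the test for a difference between HI and Sham, and Kmt2a alone had an interval of the difference that left out 0. TPM are transcripts per 1000000, that is, read counts divided by length and then scaled to sum to 1000000 in each library. At least 1 TPM in at least 3 libraries was required for a test. This was met by 56 of the 60 members: all 24 writers and 32 of the 36 erasers. By limma on log2(TPM + 1), 0 members were past an adjusted p of 0.05, as were 0 of the 13787 genes tested (0%), and the members' adjusted p ran between 0.874 and 0.998. At an unadjusted p under 0.05 there was 1 member, Kmt2a, against 3.89% of all genes tested. The log2 fold changes of the members lay between -0.50 and 0.26. Their 95% intervals had a median half-width of 0.40 on the log2 scale. On the scale of TPM + 1, the interval lay wholly within 1.5-fold in both directions for 27 members. It lay within 2-fold for 55, Kdm4b being the exception on that scale. For members with few TPM the fold of TPM itself is larger than that of TPM + 1, so these counts do not bound it.

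The members leaned one way all the same. Mean log2 levels were lower in HI for 51 of 56 members (91.1%), while 69.1% of all genes tested were lower. The median log2 fold change was -0.17 for the members and -0.09 for all genes tested, so the members stood 0.08 below all genes. This distance was -0.032 after a correction that took the dependence on GC content and on transcript length out of each library, and -0.167 without HI replicate 1. Division of each library by median-of-ratios size factors, an alternative scaling, moved the median of all genes to 0.02, and 43 of 56 members (76.8%) were then lower against 46.4% of all genes. After the GC and length correction 36 of 55 members (65.5%) were lower against 48.8%. The libraries were uneven in the same sense. HI replicate 3 held the lowest TPM for 37 of 56 members (66.1%), where it did so for 47.7% of all genes. Sham replicate 1 held the highest for 44 members (78.6%), against 51.4% of all genes. With size factors HI replicate 3 was lowest for 20 members (35.7%, all genes 26.3%) and Sham replicate 1 highest for 21 (37.5%, all genes 20.9%). Without Sham replicate 1 there were 42 members lower in HI (75%), against 59.2% of all genes. The part of these 2 libraries in the lean was not tested beyond that.

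The order of levels, compared per length on the TPM scale, spans 93.2-fold from Hdac1 to Kat6b among the members tested. Averaged over the 6 libraries, the deacetylases Hdac1 and Hdac2 led with 98.1 and 92.5 TPM. Behind them came Setd8, the H4K20 methyltransferase also called Kmt5a, with 79 TPM, then the acetyltransferases Kat7 (56.1 TPM) and Kat2a (55.7 TPM), and the mitochondrial sirtuin Sirt3 (55.6 TPM). Most members sat in the middle of the range, with a median of 13.1 TPM over the tested members and 16.4 TPM over all genes tested. Neighbours in this order rarely stood apart: the ranges over all 6 libraries overlapped in all but 2 of 55 neighbouring pairs, Kmt2b with Setd1a and Setd4 with Kat6b.

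**Figure D1:**
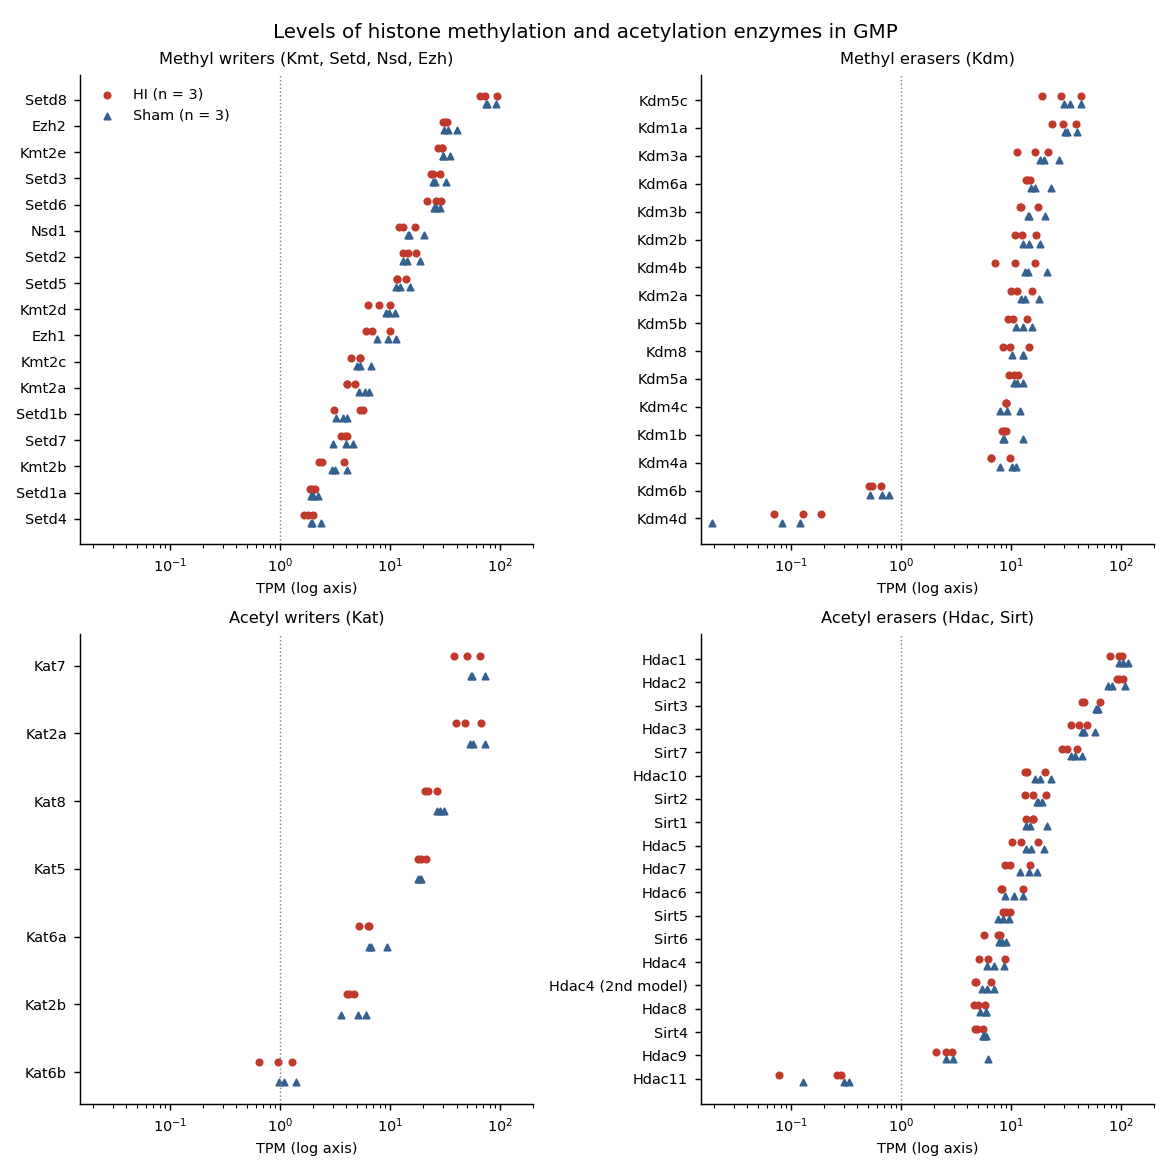
TPM of each member in each library on a log axis, HI as circles and Sham as triangles, in 4 panels by class; the dotted line marks 1 TPM, and Kdm4dl, whose mean is under 0.05 TPM, is not drawn. Circles and triangles of the same gene overlap for most members, and the spread between genes, from Hdac1 at 98.1 TPM to Kat6b at 1.05 TPM among those tested, is far wider than that between groups.

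Promoter sequence is shown for 3 members: Kmt2a and Kat8, which had the smallest unadjusted p, and Hdac2, the abundant member with a higher mean in HI. The 250 bases before the RefSeq start (GRCm38.p6) are given 5′ to 3′ on the gene's strand, at chr9:44881290-44881539 (minus strand) for Kmt2a, chr7:127912267-127912516 (plus strand) for Kat8 and chr10:36974294-36974543 (plus strand) for Hdac2. Capitals mark the GC box GGGCGG or its reverse complement CCGCCC, and the CCAAT box on either strand.
Kmt2a: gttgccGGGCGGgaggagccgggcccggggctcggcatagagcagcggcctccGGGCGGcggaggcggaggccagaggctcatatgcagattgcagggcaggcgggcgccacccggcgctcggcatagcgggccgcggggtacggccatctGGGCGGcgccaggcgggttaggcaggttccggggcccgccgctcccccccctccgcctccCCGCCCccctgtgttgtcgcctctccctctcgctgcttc
Kat8: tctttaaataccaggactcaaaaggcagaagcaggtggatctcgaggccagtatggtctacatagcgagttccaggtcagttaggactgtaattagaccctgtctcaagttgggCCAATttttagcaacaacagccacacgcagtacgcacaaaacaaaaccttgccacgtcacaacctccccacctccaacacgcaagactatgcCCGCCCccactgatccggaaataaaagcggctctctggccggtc
Hdac2: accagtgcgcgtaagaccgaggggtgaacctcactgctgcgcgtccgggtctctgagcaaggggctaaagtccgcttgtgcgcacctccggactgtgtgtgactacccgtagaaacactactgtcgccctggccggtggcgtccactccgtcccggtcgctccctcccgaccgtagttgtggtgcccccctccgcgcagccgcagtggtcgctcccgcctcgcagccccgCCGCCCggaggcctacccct

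The Kmt2a window was 76.8% G and C with 29 CpG dinucleotides and 4 GC boxes. The Kat8 window was plainer, 51.2% G and C with 10 CpG, 1 GC box and 1 CCAAT box, and that of Hdac2 had 68.8%, 27 CpG and 1 GC box. RefSeq windows were found for 45 of the 59 member symbols, and both strands were searched for each motif. The GC box was in 24 of the 45 (53.3%), against 32.9% of 27025 promoters of the same length, and CCAAT in 21 (46.7%) against 34.5%. The TATA box TATAAA was in 2 (4.44%) against 13%, and the ETS core CCGGAAG in 6 (13.3%) against 7.05%. The E-box CACGTG was in 3 (6.67%) against 6.05% and the cyclic AMP element TGACGTCA in 0 against 1.62%. Median G and C content was 59.6% in the members' windows and 52% in all, with a median of 15 CpG against 6. Matches are descriptions of these letters only.

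Among the 17 methyl writers, 15 had lower mean log2 levels in HI, against 69.1% of all genes. The other 2 were Setd1b, and Setd7 at a log2 fold change of 0.00. The median log2 fold change of the class was -0.13, which is 0.04 below that of all genes. With size factors 9 of the 17 methyl writers were lower, against 46.4% of all genes. Their summed TPM averaged 270 ± 31.5 in HI and 291 ± 36.1 in Sham (SD, n = 3 each), a difference inside the spread of the replicates. The members that methylate lysine 4 of histone H3 held both the largest deficit and the largest excess of this class.

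Kmt2a (ENSMUSG00000002028, chromosome 9, 44803355 to 44881296, minus strand, GENCODE M21 on GRCm38) encodes MLL1, a lysine 4 methyltransferase that maintains Hox gene expression in blood-forming cells. It had 4.81, 4.06 and 4.02 TPM in HI replicates 1 to 3, against 6.46, 5.95 and 5.16 TPM in Sham replicates 1 to 3. All 3 HI libraries lay below the lowest Sham library. The mean was 4.3 ± 0.444 TPM in HI and 5.86 ± 0.655 TPM in Sham (SD, n = 3 each), resting on 1365 to 1822 reads a library. By limma the log2 fold change was -0.37 (SE 0.16, 95% interval -0.73 to -0.01), with an unadjusted p of 0.0445 and an adjusted p of 0.874. The authors' deposited table gives it -0.28 and an adjusted p of 0.71, the smallest of any member there. After the GC and length correction its value was -0.22, and it was not among the 3 members then at an unadjusted p under 0.05. It also left that side of the threshold without HI replicate 2 or 3 and without Sham replicate 1 or 2, with values between -0.36 and -0.31.

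Setd1b, which forms the lysine 4 methyltransferase complex with Cxxc1, went the other way in part of the HI group. It had 3.09, 5.34 and 5.66 TPM in HI libraries, against 3.73, 4.06 and 3.21 TPM in Sham libraries. HI replicates 2 and 3 were above every Sham library, while HI replicate 1 was below all 3, so the groups overlapped. The log2 fold change was 0.26 (SE 0.21, unadjusted p = 0.237 by limma), and it was 0.48 without HI replicate 1, 0.17 without HI replicate 2 and 0.13 without HI replicate 3.

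Kmt2d, the enhancer methyltransferase, had 9.97, 7.92 and 6.34 TPM in HI, against 11, 9.16 and 9.74 TPM in Sham. HI replicate 1 reached into the Sham range. The log2 fold change was -0.29 (SE 0.18), and -0.144 without HI replicate 3. The other lysine 4 writers, Kmt2b, Kmt2c and Setd1a, averaged 2.84, 5.01 and 1.96 TPM in HI, against 3.38, 5.65 and 2.04 TPM in Sham, and Setd7, at 3.82 TPM in HI and 3.85 TPM in Sham, was level.

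Ezh2 and Ezh1 are the alternative catalytic subunits of the Polycomb complex PRC2, which methylates lysine 27 of histone H3. Ezh2 had 32.7, 31.5 and 30.1 TPM in HI, against 40.1, 33.3 and 31 TPM in Sham. The groups overlapped, and Sham replicate 1 alone stood clear. Its log2 fold change was -0.13 (SE 0.15), and -0.032 without Sham replicate 1. Ezh1 was the scarcer subunit, with 10, 6.03 and 6.89 TPM in HI, against 11.2, 7.52 and 9.5 TPM in Sham, and a log2 fold change of -0.28 (SE 0.21). Within a library Ezh2 exceeded Ezh1 by 3.27 to 5.22-fold in HI and by 3.26 to 4.44-fold in Sham, which overlap.

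Nsd1, which dimethylates lysine 36 of histone H3, had 16.7, 13.1 and 12.1 TPM in HI, against 20.1, 14.8 and 14.6 TPM in Sham, a log2 fold change of -0.22 (SE 0.18), and of -0.082 without Sham replicate 1. Setd2, the lysine 36 trimethylase, averaged 14.9 TPM in HI and 15.4 TPM in Sham. Setd8 adds the single methyl group to lysine 20 of histone H4 and was the most abundant methyl writer. It had 93, 73.3 and 65.9 TPM in HI, against 92.1, 75 and 74.8 TPM in Sham. The groups overlapped throughout. Its log2 fold change was -0.07 (SE 0.16), and 0.050 with size factors, so it has no direction that holds across scalings. The remaining SET proteins, whose histone site is other or uncertain, were Kmt2e, Setd3, Setd4, Setd5 and Setd6. Kmt2e had 29.7, 27.1 and 29.7 TPM in HI, against 35, 30.3 and 29.9 TPM in Sham. Its groups did not overlap, although Sham replicate 3 was barely above the highest HI libraries. The log2 fold changes of these 5 lay between -0.14 and -0.04, and with size factors 2 of the 5 were below 0.

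**Figure D2:**
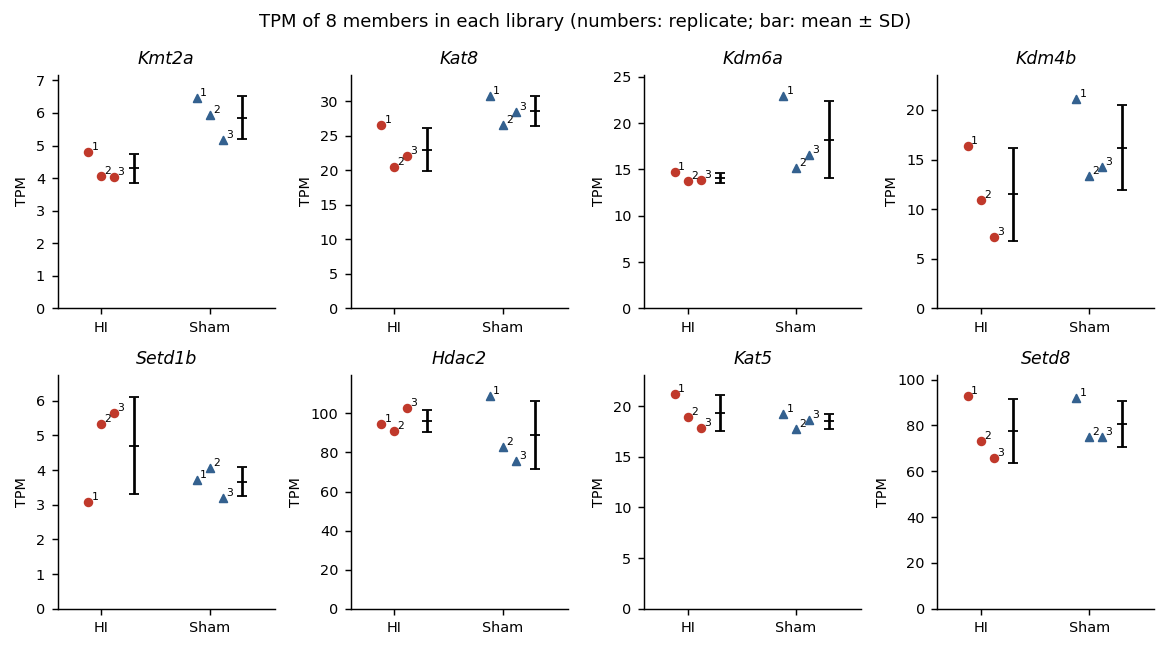
TPM of 8 members in each library, HI (circles) left of Sham (triangles), with replicate numbers and the mean ± SD as bars (n = 3 each). Kmt2a, Kat8 and Kdm6a show no overlap of the groups, Setd1b shows HI replicate 1 at 3.09 TPM apart from the other HI libraries at 5.34 and 5.66 TPM, and Kat5 and Setd8 overlap throughout.

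All 14 methyl erasers that were tested had lower means in HI, against 69.1% of all genes. The class median was -0.21, or 0.13 below that of all genes. With size factors 12 of the 14 methyl erasers were lower, against 46.4% of all genes. Their summed TPM was 252, 191 and 161 in HI, against 289, 206 and 222 in Sham. HI replicate 1 was above the lower Sham libraries, and the spread within HI was wider than the distance between the group means of 201 ± 46.3 and 239 ± 43.9 TPM for HI and Sham (SD, n = 3 each).

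Kdm4b, a demethylase of lysines 9 and 36 of histone H3, had the most negative value of all members. It had 16.4, 10.9 and 7.18 TPM in HI, against 21.1, 13.3 and 14.2 TPM in Sham. HI replicate 1 exceeded the middle Sham library, and HI replicate 3 was far below every other library. The log2 fold change was -0.50 (SE 0.27, unadjusted p = 0.088 and adjusted p = 0.874 by limma), with an interval of -1.08 to 0.09. Without HI replicate 1 the value was -0.77, with an adjusted p of 0.168 by limma, and it was -0.22 without HI replicate 3 and -0.30 without Sham replicate 1.

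Kdm6a, the X-linked demethylase of lysine 27 also called UTX, had tight HI values. It had 14.7, 13.7 and 13.9 TPM in HI, against 22.9, 15.1 and 16.6 TPM in Sham. The groups did not overlap, but the lowest Sham library was close to the highest HI library, and Sham replicate 1 carried most of the distance. The mean was 14.1 ± 0.561 TPM in HI and 18.2 TPM in Sham (n = 3 each), a log2 fold change of -0.32 (SE 0.18, unadjusted p = 0.096 by limma), and of -0.155 without Sham replicate 1. Its relative Kdm6b was scarce: 0.507, 0.655 and 0.54 TPM in HI, against 0.519, 0.775 and 0.666 TPM in Sham, on 60 to 99 reads a library, and was not tested.

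The demethylases of lysine 4 were the most abundant erasers of methyl groups. Kdm5c, also X-linked, had 42.6, 28.5 and 19.2 TPM in HI, against 43.4, 30.4 and 34.1 TPM in Sham. Kdm1a, the flavin-dependent demethylase LSD1 of the CoREST complex, had 38.5, 29.8 and 23.4 TPM in HI, against 39.9, 31.8 and 30.8 TPM in Sham. In both genes HI replicate 3 was the lowest library and HI replicate 1 was close to the highest Sham library. The log2 fold changes were -0.30 (SE 0.25) for Kdm5c and -0.17 (SE 0.19) for Kdm1a. Without HI replicate 3 they were -0.028 and -0.002, and after the GC and length correction -0.105 and -0.011. Of the lysine 9 demethylases, Kdm3a averaged 16.5 ± 5.21 TPM in HI and 21.8 TPM in Sham, a log2 fold change of -0.41 (SE 0.23, unadjusted p = 0.107 by limma). Kdm4a averaged 7.64 TPM in HI and 9.72 TPM in Sham, while Kdm4c, with 8.93 ± 0.0701 TPM in HI and 9.74 TPM in Sham, was nearly the same in all 3 HI libraries. The remaining tested demethylases, Kdm1b, Kdm2a, Kdm2b, Kdm3b, Kdm5a, Kdm5b and Kdm8, averaged between 8.58 and 13.9 TPM in HI and between 9.91 and 16.3 TPM in Sham. Their log2 fold changes lay between -0.23 for Kdm2a and -0.10 for Kdm5a, and that of Kdm5a was 0.01 with size factors, and each of them overlapped between the groups. Kdm4d and Kdm4dl were below the level for testing, with at most 9 reads and 1 read in any library, and Kdm4dl was listed at 0 in all but HI replicate 3.

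Among the acetyl writers 6 of 7 had lower means in HI with either scaling, against 69.1% of all genes, or 46.4% with size factors. Their median log2 fold change was -0.26, or 0.17 below that of all genes. Kat7, the HBO1 enzyme that acetylates lysine 14 of histone H3, had 65.6, 50.1 and 37.8 TPM in HI, against 73.3, 54.1 and 55.6 TPM in Sham. Kat2a, the GCN5 enzyme of the SAGA complex, had 66.3, 47.5 and 39.3 TPM in HI, against 72, 52.9 and 56 TPM in Sham. In each, HI replicate 1 lay inside the Sham range and HI replicate 3 was lowest. The log2 fold changes were -0.27 for Kat7 and -0.26 for Kat2a (SE 0.20 each). Without HI replicate 3 they were -0.074 and -0.090, and after the GC and length correction -0.113 and -0.040.

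Kat8 (ENSMUSG00000030801, chromosome 7, 127912516 to 127925837, plus strand) encodes MOF, which acetylates lysine 16 of histone H4 in the MSL and NSL complexes. It had 26.5, 20.5 and 22 TPM in HI, against 30.8, 26.6 and 28.4 TPM in Sham. The groups did not overlap, though the highest HI and the lowest Sham library lay side by side. The mean was 23 ± 3.11 TPM in HI and 28.6 TPM in Sham (n = 3 each), a log2 fold change of -0.31 (SE 0.16, unadjusted p = 0.0724 and adjusted p = 0.874 by limma).

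Kat5, the TIP60 enzyme of the same MYST family, was the acetyl writer with the higher mean in HI. It had 21.2, 18.9 and 17.8 TPM in HI, against 19.2, 17.7 and 18.6 TPM in Sham. The groups overlapped in TPM. The log2 fold change was 0.05 (SE 0.15), and with size factors the groups separated with Kat5 higher in HI. After the GC and length correction, under which 7.13% of all genes were at an unadjusted p under 0.05, a count of 3 members was found. By limma they were Kat5 at 0.22 (unadjusted p = 0.0185, adjusted p = 0.63), Kdm6a at -0.24 (unadjusted p = 0.0199, adjusted p = 0.654) and Kat8 at -0.21 (unadjusted p = 0.0421, adjusted p = 0.691). Kat6a, the MYST enzyme MOZ that blood stem cells depend on, had 6.21, 6.37 and 5.25 TPM in HI, against 9.3, 6.73 and 6.43 TPM in Sham. Its groups did not overlap, although HI replicate 2 and Sham replicate 3 were nearly equal, and the log2 fold change was -0.28 (SE 0.18). Its relative Kat6b averaged 0.956 TPM in HI and 1.15 TPM in Sham, and Kat2b, the paralog of Kat2a, 4.32 TPM in HI and 4.88 TPM in Sham.

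A ratio of related enzymes within a library is free of the scaling of that library. It is not free of a dependence on GC content or transcript length, in which the genes of a pair can differ. Transcript G and C content was 58.7% for Kdm4b and 43.7% for Kdm4c, and 52.1% for Kat8 and 54.7% for Kat5. The pairs given here were picked after their values were seen, so they are descriptions without a test. The log2 ratio of Kat8 to Kat5 was 0.32, 0.11 and 0.31 in HI, against 0.69, 0.58 and 0.61 in Sham, with means of 0.25 ± 0.12 in HI and 0.63 ± 0.05 in Sham (SD, n = 3 each). The groups did not overlap, as was the case for 128 of all 1540 pairs of tested members (8.31%). The log2 ratio of Setd1b to Kmt2a was -0.64, 0.39 and 0.49 in HI, against -0.79, -0.55 and -0.68 in Sham. HI replicate 1 lay within the Sham range, and the other HI libraries lay above it. For Kdm4b over Kdm4c the ratio was 0.87, 0.30 and -0.31 in HI, against 0.80, 0.75 and 0.62 in Sham, so the Sham libraries were close together and the HI libraries lay on both sides of them.

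**Figure D3:**
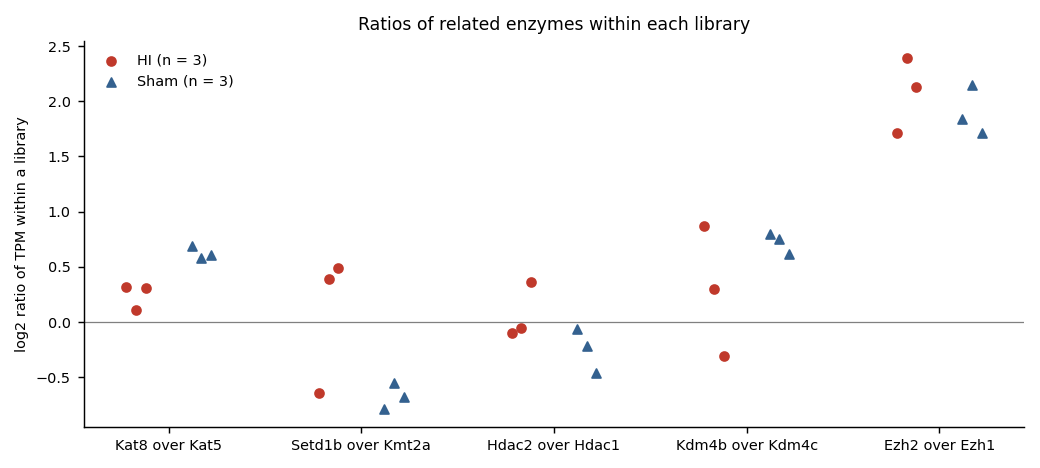
Log2 ratio of TPM between related enzymes within each library, HI as circles left of Sham as triangles (n = 3 each), with replicates 1 to 3 from left to right. The Kat8 to Kat5 ratio spans 0.11 to 0.32 in HI and 0.58 to 0.69 in Sham; the other 4 ratios overlap between the groups, and the HI libraries of Setd1b over Kmt2a and Kdm4b over Kdm4c are widely spread.

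The acetyl erasers were the most abundant class, with a summed TPM of 436 ± 49.9 in HI and 482 ± 57 in Sham (SD, n = 3 each). Of the 18 tested, 16 had lower means in HI with either scaling, against 69.1% of all genes, or 46.4% with size factors. Their median log2 fold change was -0.19, or 0.10 below that of all genes. Hdac1 and Hdac2 are the paired catalytic subunits of the NuRD, Sin3 and CoREST repressor complexes. Hdac1 had 101, 94.6 and 79.6 TPM in HI, against 114, 96.1 and 104 TPM in Sham, a log2 fold change of -0.19 (SE 0.14). Hdac2 had 94.5, 91.2 and 103 TPM in HI, against 109, 82.7 and 75.5 TPM in Sham, a log2 fold change of 0.13 (SE 0.16, unadjusted p = 0.436 by limma). Sham replicate 1 was the highest of the 6 for Hdac2, while the other Sham libraries were the lowest, so the groups overlapped. Its value was 0.017 without Sham replicate 3 and 0.078 without HI replicate 3, and 0.28 without Sham replicate 1, with an unadjusted p of 0.0416 and an adjusted p of 1 by limma. The log2 ratio of Hdac2 to Hdac1 was -0.10, -0.05 and 0.36 in HI, against -0.06, -0.22 and -0.46 in Sham.

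Hdac3, the catalytic subunit of the NCoR and SMRT complexes, had 48.4, 41.1 and 34.7 TPM in HI, against 57.5, 45.4 and 44.1 TPM in Sham, and a log2 fold change of -0.24 (SE 0.17), or -0.122 without either HI replicate 3 or Sham replicate 1. The class IIa deacetylases, which carry signals between cytoplasm and nucleus, were scarcer. All 5 of their gene models had lower means in HI with log2(TPM + 1) (69.1% of all genes), with a median of -0.28. Hdac7 had 14.9, 9.74 and 8.69 TPM in HI, against 17.2, 12 and 14.6 TPM in Sham. HI replicates 2 and 3 were below every Sham library, and HI replicate 1 was not. Its log2 fold change was -0.39 (SE 0.21, unadjusted p = 0.0976 by limma), with a range of -0.6 to -0.241 when 1 library was left out. Hdac9 averaged 2.5 ± 0.429 TPM in HI and 3.9 TPM in Sham, where replicate 1 alone had 6.21 TPM. The other class IIa models, Hdac5 and both of Hdac4, averaged 13.3, 6.67 and 5.32 TPM in HI, against 16.2, 7.15 and 6.18 TPM in Sham. How reads were split between the Hdac4 models is not given in the sources used here, so both values are uncertain. Hdac8, Hdac6 and Hdac10 averaged 5.13, 9.66 and 15.8 TPM in HI, against 5.66, 10.7 and 19.3 TPM in Sham, with log2 fold changes of -0.12, -0.15 and -0.28. Hdac11, the class IV member, was at 0.207 TPM in HI and 0.257 TPM in Sham on 6 to 27 reads a library, and was not tested.

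The sirtuins, NAD-dependent deacylases, had log2 fold changes between -0.24 for Sirt3 and 0.08 for Sirt5. Sirt1, Sirt6 and Sirt7 are nuclear and averaged 15, 7.06 and 33.5 TPM in HI, against 16.5, 8.29 and 38.7 TPM in Sham. The mitochondrial Sirt3 averaged 51.3 ± 11 TPM in HI and 60 TPM in Sham, with HI replicate 1 above every Sham library. Sirt4, also mitochondrial, had 4.66, 5.53 and 4.88 TPM in HI, against 5.7, 5.59 and 5.86 TPM in Sham. These did not overlap, with HI replicate 2 just under Sham replicate 2, and the log2 fold change was -0.16 (SE 0.16). Sirt2, which is mainly cytosolic, averaged 16.5 TPM in HI and 17.8 TPM in Sham. Sirt5, which removes succinyl groups in mitochondria, had 8.47, 8.91 and 9.66 TPM in HI, against 9.48, 7.65 and 8.42 TPM in Sham, a log2 fold change of 0.08 (SE 0.16). Its groups overlapped.

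**Figure D4:**
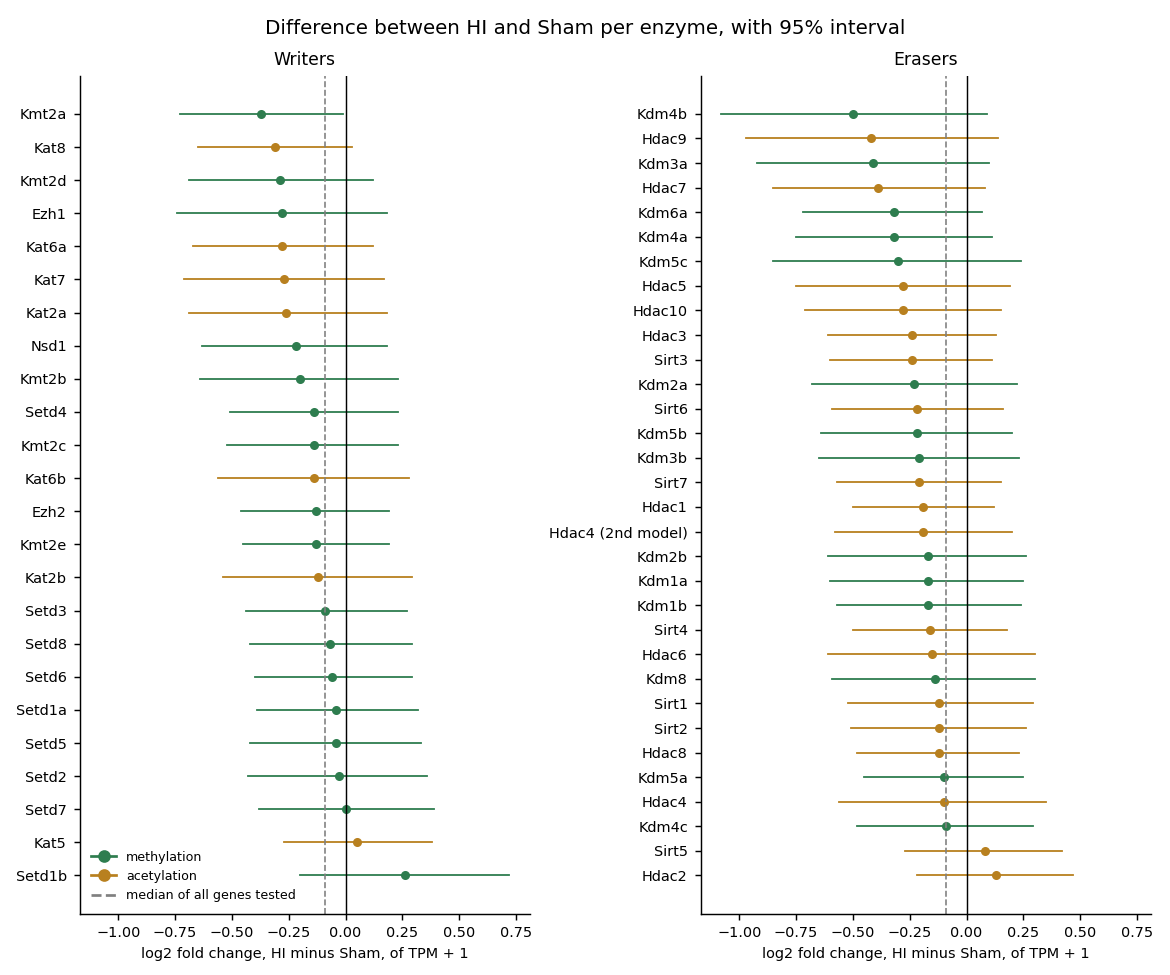
Log2 fold change, HI minus Sham, of log2(TPM + 1) for each tested member with its 95% interval, writers left and erasers right, methylation enzymes in green and acetylation enzymes in brown; the dashed line is the median of all genes tested (-0.09). Most points lie left of the dashed line, from Kdm4b at -0.50 to Setd1b at 0.26, and the interval of Kmt2a alone excludes 0.

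For writers and erasers as classes, the median log2 fold change was -0.14 for the 24 writers and -0.20 for the 32 erasers tested, which is 0.05 and 0.11 below the median of all genes. That distance was -0.002 for writers and -0.055 for erasers after the GC and length correction, and -0.021 and -0.201 without HI replicate 1. Lower mean log2 levels in HI were found for 21 writers (87.5%) and 30 erasers (93.8%), against 69.1% of all genes. With size factors they were found for 15 (62.5%) and 28 (87.5%), against 46.4% of all genes. In summed TPM the writers had 496, 409 and 372 in HI, against 545, 437 and 438 in Sham, and the erasers 744, 612 and 556 in HI, against 836, 650 and 677 in Sham. Both sums overlapped between the groups, and no test was made of the difference between the classes.

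**Figure D5:**
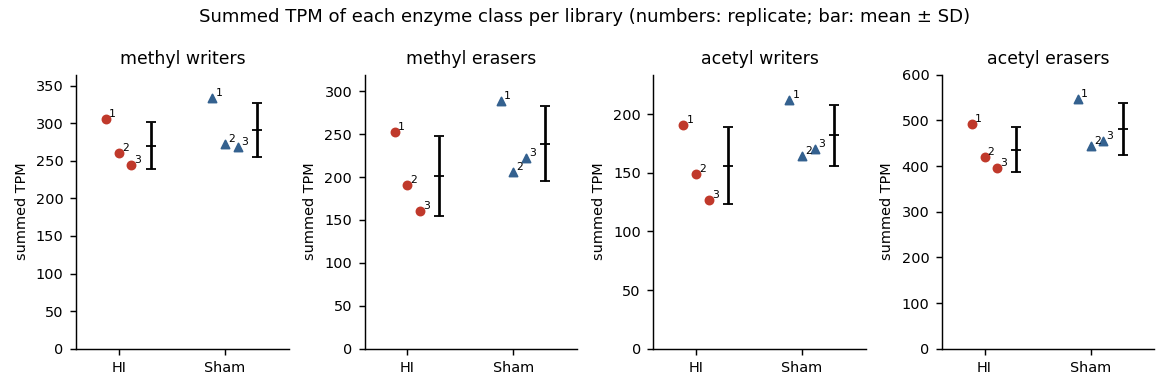
Summed TPM of the members of each class in each library, HI (circles) left of Sham (triangles), with replicate numbers and mean ± SD as bars (n = 3 each). In each of the 4 classes HI replicate 1 lies inside the Sham range and HI replicate 3 is the lowest of the 6 libraries.

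The HI and Sham values did not overlap for 6 members, all lower in HI: Kmt2a, Kat8, Kdm6a, Kat6a, Sirt4 and Kmt2e. Among all genes tested 6.68% were separated in this direction and 1.65% in the other, so 6 of 56 is near the background. With size factors the separated members were Kmt2a and Kat8, lower in HI, and Kat5, higher in HI, against 5.51% and 4.76% of all genes. HI replicate 1 weighed most on these counts. Without it 38 members were separated with lower values in HI and 1 with higher, where 35.3% and 8.58% of all genes were. Without Sham replicate 2 the separated members numbered 12, all lower in HI, against 13.7% of all genes. At an unadjusted p under 0.05 there were 16 members without HI replicate 1, against 19.4% of all genes, and 0 without HI replicate 2 (1.71% of all genes) or without HI replicate 3 (2.28%), while 3 were found without Sham replicate 2 (4.87%).

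Partner genes from the lists were also mostly lower in HI. Of 104 tested partners, readers and related enzymes, 95 (91.3%) had lower means in HI, against 69.1% of all genes, and 71 (68.3%) with size factors, against 46.4%. Their median log2 fold change was -0.17. By limma 0 were past an adjusted p of 0.05 and 2 were at an unadjusted p under 0.05, where 3.89% of all genes were. Men1, the menin subunit that tethers Kmt2a to chromatin, had 53.5, 39.5 and 35.1 TPM in HI, against 67.9, 53.9 and 58.4 TPM in Sham. Its groups did not overlap, and the log2 fold change was -0.50 (SE 0.18, unadjusted p = 0.0158 and adjusted p = 0.874 by limma). Phf1, an accessory subunit of PRC2, had 3.07, 1.88 and 1.96 TPM in HI, against 3.82, 3.21 and 3.43 TPM in Sham, and a log2 fold change of -0.46 (SE 0.19, unadjusted p = 0.031 by limma).

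The counts by complex are to be read against 69.1% of all genes lower in HI, or 46.4% with size factors. For the COMPASS list, 9 of 11 partners of the Kmt2 and Setd1 enzymes were lower in HI (7 with size factors), with Rbbp5 at -0.33 and the small core subunit Dpy30 at 0.21. Of the 9 PRC2 partners 8 were lower (4 with size factors), with a median 0.03 above that of all genes, and the most abundant, Rbbp7, averaged 293 TPM in HI and 296 TPM in Sham. All 30 tested partners of the Kat complexes were lower (25 with size factors), led by Supt7l of SAGA at -0.37 and Brpf3, a scaffold of MYST complexes, at -0.33, while the abundant Kansl2 was at -0.12. Of the 24 deacetylase partners 20 were lower (13 with size factors), with Sin3b at -0.30, Mier2 at -0.41 and the abundant Mbd3 at -0.09. The other methyltransferases (13 of 14 lower, 10 with size factors) included Ehmt1 at -0.36, Setdb1 at -0.29 and Prmt1 at -0.10. The other demethylases (6 of 6 lower, 4 with size factors) included Phf2 at -0.20. The other acetyltransferases (6 of 7 lower, 5 with size factors) included Crebbp at -0.33, Ncoa3 at -0.28 and Hat1 at 0.02. Of the bromodomain readers, Brd2 was at -0.34 and Brd3 at -0.19, both lower in HI with either scaling. None of these but Men1 and Phf1 was at an unadjusted p under 0.05.

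The members were long genes, with a median transcript length of 4663 bases against 2696 for all genes tested, and a G and C content of 50% against 49.2%. Across all 13569 genes with a transcript, log2 fold change went down with length (Spearman -0.32) and with G and C content (-0.34), and across 55 members it did so less (-0.14 and -0.23). These are correlations across genes of the same 6 libraries, and genes are not independent replicates.

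The sorted identity was clear from its markers. Mpo, the myeloperoxidase of granule-forming progenitors, averaged 9846 ± 1922 TPM in HI and 11288 ± 1559 TPM in Sham, and Elane 10713 ± 676 TPM in HI and 10672 ± 1484 TPM in Sham (SD, n = 3 each). Cd34 and Kit averaged 219 and 93.7 TPM in HI, against 277 and 110 TPM in Sham. Of the markers of other cells, 0 were past an adjusted p of 0.05 by limma, and some sums differed between the groups. Erythroid and megakaryocyte markers summed to 119 to 194 TPM in HI and 261 to 304 TPM in Sham; 12 of the 13 tested were lower in HI (69.1% of all genes), 7 of them at an unadjusted p under 0.05 (3.89% of all genes). B lymphoid markers summed to 296 to 405 TPM in HI and 450 to 524 TPM in Sham, most of it Ighm, with Pax5 and Ebf1 at or near 0. All 6 that were tested were lower in HI (69.1% of all genes), and 4 of them did not overlap between the groups (6.68% of all genes). Igkc did overlap, with 1.46, 49.7 and 2.87 TPM in HI, against 49.4, 38.6 and 34.9 TPM in Sham. Macrophage markers summed to 79.9 to 96.4 TPM in HI and 102 to 115 TPM in Sham, most of it Apoe, and neutrophil markers to 386 to 875 TPM in HI and 545 to 812 TPM in Sham, which overlap. The T cell markers Cd3e, Cd3g and Trac and the stromal markers Cdh5 and Sp7 were at or near 0, but other genes of these lists were not. Nkg7 of the T and NK list averaged 839 TPM in HI and 855 TPM in Sham, and Lck 0.816 and 1.03 TPM. Pecam1, Pdgfrb and Runx2 of the stromal and endothelial list averaged 24, 5.97 and 4.96 TPM in HI, against 26.2, 6.8 and 5.62 TPM in Sham. The part of these cells in the members' values was not tested. Recovered reads summed to 32755589 to 41624578 in HI libraries and 32548024 to 37130484 in Sham libraries. For 9801 genes the reads are known only up to a common factor, so these sums can fall short of the depth. Across genes they correlated with r of 0.9785 to 0.9922 within HI, 0.9846 to 0.9931 within Sham and 0.9735 to 0.9918 between the groups.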

How the data were processed

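RNA sequencing of 3 HI and 3 Sham libraries was used as deposited by the authors in TPM for 24205 genes, per the file headers. The authors' log2 fold change and adjusted p-value per gene are in the same deposited table; its header does not name a direction, and the sign was turned because it ran opposite to HI over Sham (Spearman -0.96 across genes). The submitters' processing notes name mm10 as the genome. Which aligner, counter and annotation were applied, and whether strand was used, is not given in the sources used here.

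A gene was tested if 3 or more libraries had 1 TPM or more (13787 genes), with limma 3.58.1 in R 4.3.3: log2(TPM + 1), a variance trend, robust empirical Bayes, 4 residual degrees of freedom and Benjamini-Hochberg adjustment over all genes tested at 0.05. On this scale fold changes of low genes are smaller than ratios of means. The fit was run on simulated reads in which libraries differed only in depth, in the fold changes put in and in random variation between replicates. That simulation holds no shift of a whole library and no dependence on GC content or length. It therefore does not show how the fit behaves with the uneven libraries here. Reads were recovered from TPM and GENCODE M21 exon lengths, whole within 0.001 reads for 14404 genes (59.5%); for the other 9801 they are whole up to a common factor, and counting strand is unknown, so overlapping genes may share reads. These read counts served for the depth and for voom. No pair of libraries agreed within sampling noise.

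The members and the gene lists were chosen with earlier results of these data known. Values in all 6 libraries are given for the 3 members with the smallest p in each direction, the 2 most abundant of each class and the fixed members Ezh1, Ezh2, Kmt2a, Kmt2d, Kdm6a, Kdm6b, Nsd1, Hdac1 to Hdac3 and Hdac7. Kat5, Kat6a, Kmt2e and Sirt4 were given in full after their values were seen. Of each partner list the 2 genes with the smallest p and the most abundant were chosen, mostly with a fold change only. Other members are named as examples. A gene of the partner lists is not reported here by name. Alternatives were size factors, quantile normalization, filters, pseudocounts of 0.1 and 5, no trend, the replicate block, a loess correction for GC content and length (span 0.3), voom and leaving out each library. Figures were drawn with matplotlib 3.10.9. A deposited short list of genes and its columns were not used.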

Additional observations from a re-analysis of the deposited data

How the results depend on the processing

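Over 18 alternatives, 0 members passed an adjusted p of 0.05; the smallest, 0.126 for Kdm4b, came with the replicate number as a block. The labels do not say whether same-numbered libraries are paired. Deviations of same-numbered libraries from their group means correlated at 0.389, 0.182 and 0.0757. HI 1 and HI 2 correlated best with the Sham library of their own number, and HI 3 with Sham 2 (0.383). Such deviations carry the shift of a whole library, so they cannot decide whether the libraries are paired. With the block 69 of all genes tested passed an adjusted p of 0.05 by limma, against 0 in the reported fit. The number was 0 when the block was added to size factors or to the GC and length correction. Without HI replicate 1 and with no block it was 33. At an unadjusted p under 0.05 there was 1 member in the reported fit, 12 with the replicate block (13.7% of all genes), 3 with the GC and length correction (7.13%), 5 with that correction and the block (10.4%), 2 with size factors and the block (10.1%), and between 0 and 16 when 1 library was left out. Separated members numbered 6 (8.33% of all genes), against 3 with size factors (10.3%), 3 with voom (10.3%) and 6 to 39 when 1 library was left out (43.9% of all genes where it was 39). The median of the members minus that of all genes, -0.08, lay between -0.167 and -0.047 when 1 library was left out, and between -0.127 and -0.032 under the other alternatives, the value nearest 0 with the GC and length correction. Of 341 recomputed values of 19 members given in full, 334 kept their direction. Kat5, Kat6a, Kmt2e and Sirt4 are not among these 19. Since 0 members passed an adjusted p of 0.05 in any setting, the side of that threshold says nothing more. At an unadjusted p under 0.05 members did change sides, as the counts above show. The 7 that turned were all of Setd8: 0.050 with size factors, 0.069 with the GC and length correction, 0.069 with the block added, 0.051 with voom, 0.050 with size factors and the block, and -0.205 to 0.04 when 1 library was left out. The causes were not tested. Size factors with the block, and the inclusion of older symbols, were chosen after seeing the data; with older symbols 57 of 62 members were lower in HI. With 3 libraries a group, the unadjusted 95% interval of a typical member reached about 0.40 to each side on the log2 scale. This is not the limit of detection at an adjusted p of 0.05, which lies higher: Kdm4b at -0.50 had an adjusted p of 0.874 by limma.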

Other observations

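Of these families, 6 protein-coding genes stand in the table under older symbols and so fell outside the rule by name. Suv420h2, now Kmt5c, which adds further methyl groups to lysine 20 of histone H4, had 62, 46.3 and 40 TPM in HI, against 62.5, 51.3 and 56.6 TPM in Sham. Whsc1, now Nsd2, which dimethylates lysine 36 of histone H3, had 21.5, 17.1 and 13.7 TPM in HI, against 24.6, 15.8 and 17.4 TPM in Sham. Both overlapped between the groups, and HI replicate 3 was the lowest of the 6 libraries in each. Csrp2bp (Kat14), Whsc1l1 (Nsd3), Jhdm1d (Kdm7a) and Suv420h1 (Kmt5b) averaged 27.2, 6.28, 5.82 and 4.65 TPM in HI, against 29.4, 6.42, 6.41 and 5.71 TPM in Sham. All 6 had negative log2 fold changes with log2(TPM + 1) (69.1% of all genes), and 4 of them with size factors (46.4% of all genes). Their median was -0.12 with log2(TPM + 1), and 0 were at an unadjusted p under 0.05 by limma.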
